A study of Drosophila melanogaster with 9 samples.

Results

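The genes v, cn, cd, st, w and bw encode enzymes and transporters of eye pigment. They were chosen by name, as the rows of the deposited count tables whose gene name is one of these symbols, and all 6 were found among 17558 genes. The tables come from RNA of pupal eyes of Drosophila melanogaster, taken at 25 °C when pupae were 40 to 41 hours past puparium formation, with 60 eyes pooled for a library. There were 3 genotypes with 3 biological replicates each, and every animal carried pGMR-GAL4, a driver active in the differentiating eye. The mCherry group carried UAS-mCherry (BDSC #35787) over the driver and is the labelled wild-type control. The Bon group carried 1 copy of UAS-bon-mCherry, which overexpresses a tagged form of Bonus (Bon), a transcriptional cofactor. The Bon+yki-RNAi group carried UAS-bon-mCherry and, over the driver, UAS-yki-RNAi (BDSC #34067), which targets the Hippo pathway coactivator Yorkie. The study asked what Bon and Yki do to transcription when eye cells take on epidermal traits.

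The eye colour of the fly comes from brown ommochromes and red pteridines, stored in granules of the pigment cells and, for ommochromes, also of photoreceptors. Ommochromes are made from tryptophan: v (vermilion) encodes tryptophan 2,3-dioxygenase, which opens the indole ring, cn (cinnabar) encodes kynurenine 3-monooxygenase, and cd (cardinal) encodes a haem peroxidase that acts late in the pathway. The products of w (white), st (scarlet) and bw (brown) are subunits of ABC transporters of the ABCG family, which work in pairs. White pairs with Scarlet to carry ommochrome precursors into the granule, and with Brown to carry pteridine precursors, so that loss of w leaves the eye without either pigment.

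Coordinates were copied from the count tables (BDGP6). The gene v (FBgn0003965) lies on X, 10923972 to 10925631, plus strand, with 6 exons after merging of transcripts. On the same chromosome, w (FBgn0003996) spans 2790599 to 2796466, minus strand. The gene cn (FBgn0000337) lies on 2R, 7782797 to 7785067, minus strand, and bw (FBgn0000241) on 2R, 23527805 to 23538499, minus strand. The gene cd (FBgn0263986) lies on 3R, 22694959 to 22697990, and st (FBgn0003515) on 3L, 16497651 to 16500460, both on the plus strand. The exons of v, cd, st and w share no base with another annotated gene. The exons of cn share 1229 of their 1790 bases with the antisense RNA gene asRNA:CR45108, and in each of the 9 libraries that gene had 0.931 to 0.984 times the count of cn. Whether the counting used strand is not given in the sources used here, so reads of cn and of its antisense partner cannot be told apart. The exons of bw share 456 of 2738 bases with mi, a gene on the opposite strand that had 0.169 times the count of bw in the mCherry library where this ratio was lowest and 2.15 times in the Bon library where it was highest.

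Library totals were 34926438 to 48524961 counts. The lowest correlation between libraries of a group, across genes on the log2 scale, was 0.995, and no pair was so alike as to be 1 library deposited again (chi-square divided by genes, 2.6 to 11.0). Of 8 retina markers, gl, so, eya, chp, elav and ninaC had group means of 114 CPM or more, while sev had 9.04 to 10.6 CPM and ro 1.47 to 2.93 CPM. Mean bon levels were 174, 4980 and 4170 CPM in mCherry, Bon and Bon+yki-RNAi eyes, transgene reads included, and mean yki levels were 61.1, 62.6 and 29.2 CPM.

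In control eyes all 6 genes were expressed, at unequal levels. Levels between genes are compared as CPM per kilobase of gene length (CPM per kb), with CPM taken over library sizes after TMM scaling. The highest was cd, at 270 ± 5.45 CPM per kb (SD, n = 3), followed by st at 249 ± 5.08 and w at 245 ± 14.1. The libraries of st and w overlapped, so these neighbours in the order were not apart beyond their spread. Brown stood at 163 ± 6.03, cn at 50.2 ± 3.19 and v at 45.4 ± 2.27 CPM per kb. With the counts of asRNA:CR45108 added, cn would stand at 99.5 ± 6.34, still between bw and v. Of 11068 tested genes, 2.03% had a higher level per length than cd in these eyes, and 15.4% a higher one than v.

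With Bon overexpression all 6 genes fell, to between 0.376% of the control mean for v and 89.8% for st. Of all tested genes 27.2% fell and 52.4% were past the threshold in either direction (edgeR quasi-likelihood test, adjusted p under 0.05). The Bon and mCherry libraries did not overlap for any of the 6, as for 58.6% of tested genes. The median log2 fold change of the 6 was -2.39, beside a median of 0.00 over all tested genes. With upper-quartile scaling 3894 genes rose and 2323 fell, and with library totals alone 3596 rose and 2475 fell, against 2786 and 3009 with TMM, and under each of these all 6 pigment genes still fell. In these pooled eyes, fewer cells of a type and less RNA per cell cannot be told apart.

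**Figure D1:**
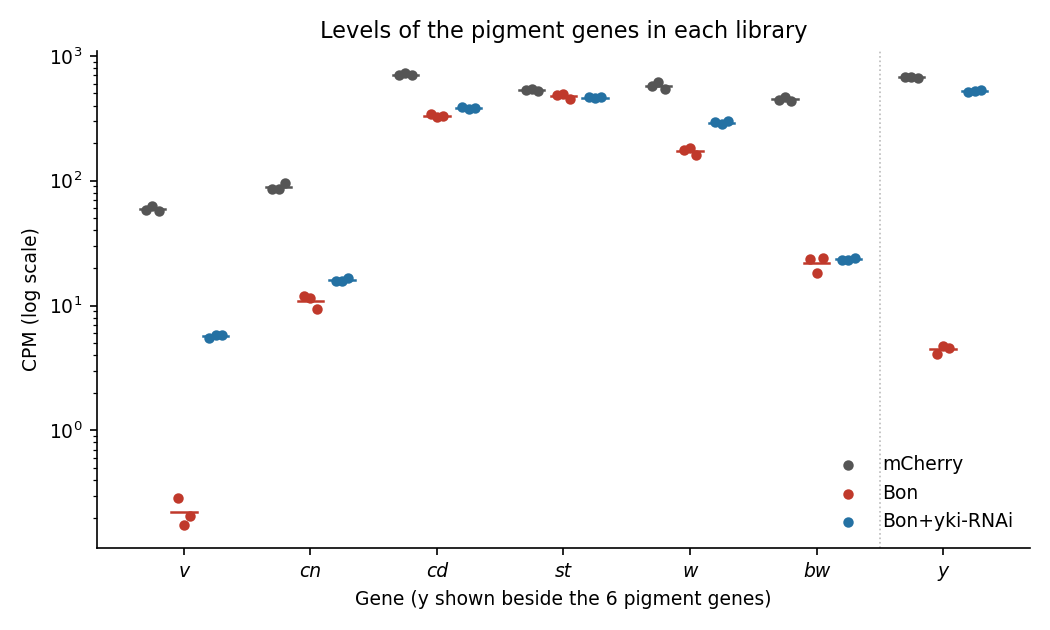
CPM on a log axis for each of the 9 libraries (points) and the group mean (bars) of the 6 pigment genes and of y. The Bon libraries lie below the mCherry libraries for every gene shown, by far the most for v and y, while st stays within 454 to 542 CPM in all 9 libraries.

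Among the enzymes, v was nearly lost. Its level was 58.4, 62.6 and 56.9 CPM in the mCherry libraries, 0.290, 0.174 and 0.205 CPM in Bon, and 5.53, 5.80 and 5.83 CPM in Bon+yki-RNAi. No 2 groups overlapped, and the Bon values rest on 13.5, 8 and 8.5 counts, above the 0.0621 to 0.0769 CPM that 3 counts represent there. The log2 fold change of Bon against mCherry was -8.03 ± 0.09 (SE, edgeR quasi-likelihood adjusted p = 7.24e-17), and 5 of the 11068 tested genes had a lower one. The group mean in Bon was 0.376% of that in mCherry.

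The pattern of v was set beside that of y (yellow), a cuticle pigmentation gene on X. Intact copies of v, y and w are in wide use as visible markers on fly transgenes, and the labels give neither the markers of these transgenes nor the v, y and w alleles of the stocks. The level of y was 676, 676 and 669 CPM in mCherry, 4.06, 4.76 and 4.59 CPM in Bon and 513, 518 and 533 CPM in Bon+yki-RNAi. Both v and y were thus low in the group whose label has no BDSC stock number and higher in the groups with one. For v, y and w, a response to the expressed transgenes and a difference in alleles or marker copies between the genotypes cannot be told apart.

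The gene cn, next but one to v in the pathway, was lower by a smaller factor. It stood at 86.5, 86.5 and 96.4 CPM in mCherry, 11.8, 11.5 and 9.33 CPM in Bon, and 15.7, 15.7 and 16.8 CPM in Bon+yki-RNAi. All Bon libraries lay below all others. Its log2 fold change of Bon against mCherry was -3.03 ± 0.07 (edgeR quasi-likelihood adjusted p = 1.09e-11). When its counts were summed with those of asRNA:CR45108 it was -3.04 ± 0.08. The antisense gene had 0.931 to 0.984 times the count of cn in every library, so the sum had to change nearly as cn did. It cannot tell a change of cn from a change of its antisense partner.

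The late enzyme gene cd kept 46.7% of its control level in Bon eyes. Its libraries gave 702, 724 and 697 CPM in mCherry, 339, 324 and 329 CPM in Bon and 389, 375 and 379 CPM in Bon+yki-RNAi. The groups did not overlap, and the log2 fold change with Bon was -1.10 ± 0.03 (edgeR quasi-likelihood adjusted p = 2.19e-13). The falls of v, cn and cd were therefore unequal, largest for v and smallest for cd. For v, as stated above, a response to the transgenes and a difference in alleles or marker copies cannot be told apart.

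The transporter genes also fell unequally. The level of bw was 446, 465 and 432 CPM in mCherry, 23.4, 18.2 and 24.0 CPM in Bon and 23.23, 23.01 and 23.87 CPM in Bon+yki-RNAi. All mCherry libraries were far above the rest, and the Bon and Bon+yki-RNAi libraries overlapped. The log2 fold change with Bon was -4.36 ± 0.08 (edgeR quasi-likelihood adjusted p = 1.6e-10), a mean of 4.89% of control. The overlapping gene mi had more counts than bw in the Bon libraries, and reads of the shared bases cannot be told apart.

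The common partner w fell less. It stood at 572, 613 and 547 CPM in mCherry, 177, 182 and 159 CPM in Bon and 294, 283 and 300.0 CPM in Bon+yki-RNAi. The groups did not overlap, and the Bon group was the lowest. The log2 fold change with Bon was -1.74 ± 0.05 (edgeR quasi-likelihood adjusted p = 2.4e-10). As for v, a response to the transgenes and a difference in alleles or marker copies cannot be told apart here.

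The partner of White in ommochrome transport, st, changed least of the 6. Its libraries held 537, 542 and 521 CPM in mCherry, 484, 498 and 454 CPM in Bon and 464, 462 and 464 CPM in Bon+yki-RNAi. The mCherry libraries were all higher than the others, though by a small margin. The log2 fold change with Bon was -0.16 ± 0.03 (edgeR quasi-likelihood adjusted p = 0.000888), and it was -0.09 (adjusted p = 0.0215) with upper-quartile scaling, so its size depends on the scaling.

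**Figure D2:**
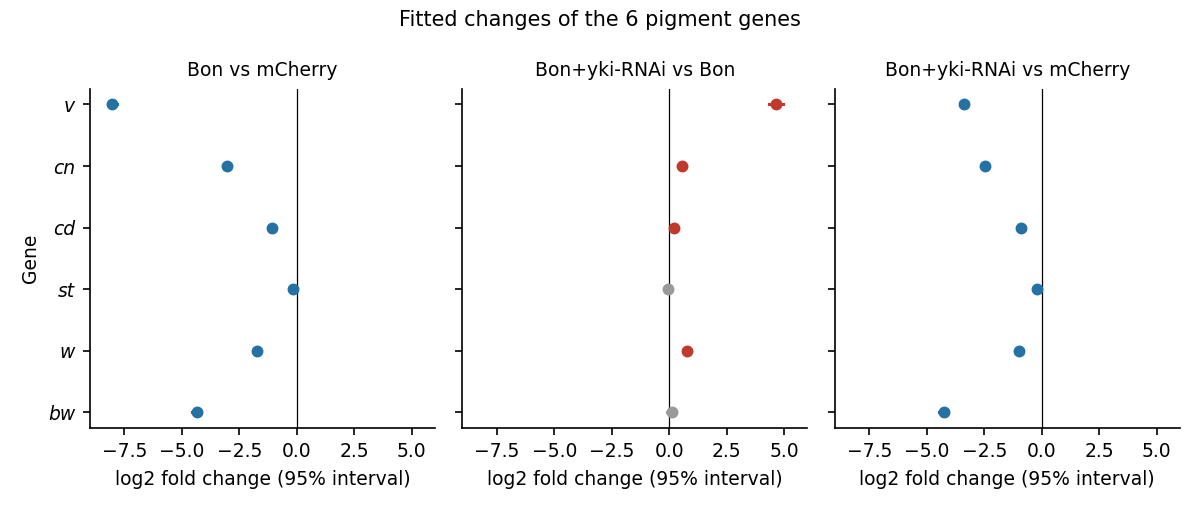
Log2 fold changes of the 6 pigment genes with 95% intervals (lines, mostly within the points) in the 3 comparisons, from the fit over all 9 libraries. Blue points fell, red points rose and grey points did not pass the threshold: all 6 fell against mCherry in both genotypes with Bon, and v, w, cn and cd rose between Bon and Bon+yki-RNAi.

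Because these genes moved by different amounts, the ratio of one to another within a library changed, and such a ratio does not depend on how libraries are scaled. Per length, st over w lay at 0.970 to 1.04 in the mCherry libraries, at 2.99 to 3.13 with Bon alone and at 1.70 to 1.79 with yki knockdown added. The ratio of bw to w was 0.652 to 0.678 in the mCherry libraries. It was 0.0858 to 0.130 with Bon alone, and 0.0678 to 0.0699 with yki knockdown added. For both ratios the 3 groups did not overlap. Both hold w, as does the sum of the transporter genes, and the alleles and marker copies of w are not given. A response to the transgenes and a difference in these cannot be told apart. Of the summed level of the 3 transporter genes, bw made up 24.9% ± 0.0453 in mCherry, 2.64% ± 0.485 in Bon and 2.45% ± 0.0240 in Bon+yki-RNAi (SD, n = 3).

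Among the enzymes, cn over v was 1.01 to 1.24 in control libraries, 29.8 to 48.3 with Bon alone, where v had 8 to 13.5 counts, and 1.97 to 2.10 with yki knockdown added. The ratio of cd to cn, with cn as deposited, was 4.94 to 5.72 in control libraries, 19.2 to 24.1 with Bon alone and 15.5 to 17.0 with yki knockdown added. Neither ratio overlapped between groups. The ratio of cn to v holds v, whose alleles and marker copies are not given either. The order of levels per length in Bon was st, cd, w, bw, cn and v, from 223 to 0.171 CPM per kb, and no neighbours in it overlapped. With asRNA:CR45108 added, cn would stand at 11.9 ± 1.42, above bw at 7.99 ± 1.17.

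**Figure D3:**
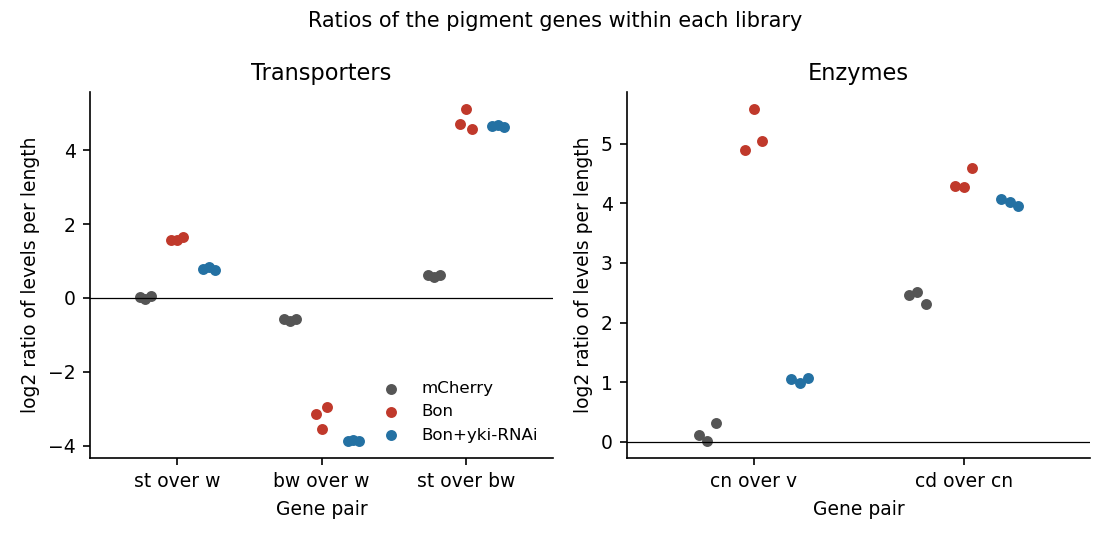
Log2 of the ratio of levels per length for pairs of transporter genes (left) and enzyme genes (right), with a point for each library. The ratio of st to w is near 0 on this scale in mCherry and highest in Bon, and bw over w is lower in both groups with Bon than in mCherry. The alleles and marker copies of w and v are not given.

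When yki was knocked down in Bon eyes, 4 of the 6 genes rose, v, w, cn and cd, and st and bw did not pass the threshold. For v and w, as stated above, a response to the transgenes and a difference in alleles or marker copies cannot be told apart. The level of bon itself fell, from 4980 CPM in Bon to 4170 CPM in Bon+yki-RNAi (-0.26 ± 0.03, edgeR quasi-likelihood adjusted p = 6.14e-05). The part of this fall in the changes of the pigment genes was not tested. In this comparison 11.3% of tested genes rose, 16.3% fell and 27.6% were past the threshold in either direction. The libraries of the groups did not overlap for the same 4 pigment genes, as for 44.4% of tested genes. The median log2 fold change of the 6 was 0.38, beside -0.01 over all tested genes. With upper-quartile scaling 1610 genes rose and 1468 fell, and with library totals alone 2440 and 1208, against 1251 and 1803 with TMM. The comparison uses the same Bon libraries as that of Bon with mCherry, so a chance deviation of those libraries would move both in opposite directions.

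The size of the rise differed from gene to gene. For v the log2 fold change was 4.65 ± 0.14 (edgeR quasi-likelihood adjusted p = 1.45e-11), with 2 of 11068 genes higher, one of which was y at 6.87 ± 0.04. It rose from 0.376% to 9.65% of the mCherry mean, while y rose from 0.663% to 77.3%. For w the log2 fold change was 0.76 ± 0.05 (adjusted p = 1.57e-06 in the same test), from 29.9% to 50.6% of the mCherry mean. The gene cn rose by 0.55 ± 0.08 (adjusted p = 0.000482 in that test), from 12.1% to 17.9%. With its antisense partner joined the rise was 0.54 ± 0.08, and here too the sum cannot tell them apart. Smallest was the rise of cd, 0.20 ± 0.03 (adjusted p = 7.28e-05, edgeR quasi-likelihood test), from 46.7% to 53.8%.

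For bw the log2 fold change between Bon+yki-RNAi and Bon was 0.10 ± 0.09 (edgeR quasi-likelihood adjusted p = 0.507), with a 95% interval of -0.12 to 0.31. For st it was -0.05 ± 0.03 (adjusted p = 0.315 in the same test), with an interval of -0.12 to 0.02. A change of the bw counts as large as that of w or cn lies outside the interval of bw. In every library of both groups the overlapping gene mi had more counts than bw. Reads of their shared bases cannot be told apart, so the interval holds for the counts given to bw. Without Bon replicate 3, st passed the threshold at -0.08 (adjusted p = 0.0448).

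Against mCherry, all 6 genes were lower in Bon+yki-RNAi eyes, where 29.4% of tested genes fell and 54.5% were past the threshold in either direction. No library of one group reached those of the other for any of the 6, as for 61.8% of tested genes. With upper-quartile scaling 4252 genes rose and 2412 fell, and with library totals alone 4537 and 2292, against 2773 and 3259 with TMM. The largest fall was now that of bw, -4.26 ± 0.08 (edgeR quasi-likelihood adjusted p = 1.99e-10), followed by v at -3.38 ± 0.06 and cn at -2.48 ± 0.07. The other falls were those of w at -0.98 ± 0.05, cd at -0.89 ± 0.03 and st at -0.20 ± 0.03. Each of the 6 had an adjusted p of 8.66e-05 or less in that test. The fall of st was -0.11 with upper-quartile scaling and -0.09 with library totals alone, so its size depends on the scaling. For v and w the alleles and marker copies are not given. In the order of levels per length v was again last, at 4.38 ± 0.127 CPM per kb, below bw at 8.54 ± 0.164 and cn at 8.96 ± 0.348. With asRNA:CR45108 added, cn would stand at 17.5 ± 0.721.

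In the authors' deposited table for Bon against mCherry, the log2 fold changes were -8.09 for v, -4.35 for bw, -3.03 for cn, -1.74 for w, -1.09 for cd and -0.15 for st. In the authors' deposited table for Bon+yki-RNAi against Bon, they were 4.73 for v, 0.77 for w, 0.57 for cn, 0.22 for cd, 0.11 for bw and -0.03 for st.

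Markers of the cells that make pigment and of other tissues were measured beside these genes. Over all tested genes, 25.2% rose and 27.2% fell with Bon. Of 7 markers of cone and pigment cells, 6 fell with Bon, and their summed level went from 1670 to 1690 CPM in the mCherry libraries to 1070 to 1100 CPM in Bon and 1180 to 1210 CPM in Bon+yki-RNAi. Among them sv, a Pax gene of these cells, fell by 2.07 on the log2 scale, while lz, a Runx gene, stood at 207 and 220 CPM. Of 8 retina markers 3 rose and 4 fell with Bon, with a summed level of 2690 to 2760, 1810 to 1880 and 1800 to 1820 CPM. The part of these markers in the changes of the pigment genes was not tested.

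The genes v and cn are also known for expression in fat body and Malpighian tubules. The 7 fat body markers summed to 42.8 to 64.9 CPM in control libraries, 31.2 to 52.9 with Bon alone and 47.3 to 54.6 with yki knockdown added, most of it apolpp. Of the 6 tested, 1 fell with Bon, beside 27.2% of all tested genes. The 4 tubule markers summed to 2.39 to 2.93 CPM in control libraries, 3.92 to 4.47 CPM with Bon alone and 3.10 to 3.80 CPM with yki knockdown added. Of the 2 tested, ZnT35C rose with Bon (2.35 on the log2 scale), and against mCherry in Bon+yki-RNAi it rose by 1.99 while CapaR fell by 0.44. Uro had 0 counts in all mCherry and Bon libraries and a mean of 0.0162 CPM in Bon+yki-RNAi. The 6 hemocyte markers summed to 845 to 867, 768 to 812 and 814 to 858 CPM in control, Bon and Bon+yki-RNAi libraries. Most of each sum was Col4a1, at means of 594, 574 and 593 CPM. In control eyes Hml, NimC1 and eater had 1.43, 1.18 and 0.289 CPM. Of the 6, 1 fell with Bon, and 3 fell in Bon+yki-RNAi against mCherry, where 29.4% of tested genes fell. The 3 were Hml (-0.87 on the log2 scale), NimC1 (-1.02) and eater (-1.53). The 5 glial markers summed to 722 to 732, 544 to 575 and 569 to 592 CPM in the same order, and 1 of them, wrapper, fell with Bon, from 286 to 117 CPM, while repo stood at 126, 133 and 151 CPM. The 6 muscle markers summed to 951 to 1080, 497 to 569 and 602 to 635 CPM, nearly all of it sls, the 1 that fell with Bon, from 1030 to 535 CPM, while Mhc stood at 1.45, 1.57 and 2.45 CPM. The glial and muscle sums were thus lower in both groups with Bon than in any mCherry library. The part of these tissues in the results was not tested.

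Other genes around the pathway were grouped by function, and no list had a median as far from 0 as the 6 pigment genes. The 6 genes and the lists were chosen with earlier results of these data known, so this is not a test. The median of the 6 includes v and w, whose alleles and marker copies are not given. Over all tested genes, 25.2% rose and 27.2% fell with Bon, and 11.3% rose and 16.3% fell with yki knockdown. Of 6 tested genes that handle tryptophan or kynurenine, 4 fell and 0 rose with Bon (median log2 fold change -0.20). KFase, which hydrolyses the product of Vermilion and so stands between v and cn, went from 47.7 to 7.55 CPM (-2.66 ± 0.07, edgeR quasi-likelihood adjusted p = 3.92e-13). The monocarboxylate transporter gene kar went from 464 to 256 CPM (-0.86 ± 0.05). With yki knockdown 2 of the 6 rose and 2 fell (median 0.05), KFase at 0.52 ± 0.08 and the tryptophanyl-tRNA synthetase gene TrpRS at -0.22 ± 0.03. Phenylalanine hydroxylase, encoded by Hn, had too few counts for the test.

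Of 12 other ABCG genes, 4 rose and 6 fell with Bon (median -0.17), beside 25.2% and 27.2% of all tested genes. The ecdysone-induced transporter gene E23 went from 185 to 84.7 CPM (-1.13 ± 0.04, edgeR quasi-likelihood adjusted p = 5.56e-12), and CG3164 had -0.37 ± 0.03. With yki knockdown 2 of the 12 rose and 2 fell (median 0.07), beside 11.3% and 16.3% of all tested genes. The falls were those of CG31121 at -0.32 ± 0.05 and CG11069 at -0.33 ± 0.05.

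Of 11 tested pteridine genes, 1 rose and 7 fell with Bon (median -0.25), beside 25.2% and 27.2% of all tested genes. Mocs1, of molybdenum cofactor synthesis, went from 21.4 to 5.27 CPM (-2.03 ± 0.07, edgeR quasi-likelihood adjusted p = 7.75e-12), and cl (clot) fell by 0.84 ± 0.04 on the log2 scale. With yki knockdown 2 rose and 2 fell (median 0.02), beside 11.3% and 16.3% of all tested genes. Mocs1 rose by 2.03 ± 0.07, to 21.5 CPM, and Pu, the GTP cyclohydrolase gene at the start of pteridine synthesis, had -0.52 ± 0.04.

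Of 14 tested genes of granule biogenesis, 2 rose and 6 fell with Bon (median -0.06), beside 25.2% and 27.2% of all tested genes. The Rab gene Rab32, known as lightoid, went from 2010 to 1370 CPM (-0.55 ± 0.03, edgeR quasi-likelihood adjusted p = 9.24e-10), and p (pink) had -0.21 ± 0.03. With yki knockdown 1 rose and 1 fell (median 0.01), beside 11.3% and 16.3% of all tested genes. These were p at 0.11 ± 0.03 and the adaptor subunit gene cm (carmine) at -0.15 ± 0.05. No list was tested as a whole.

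**Figure D4:**
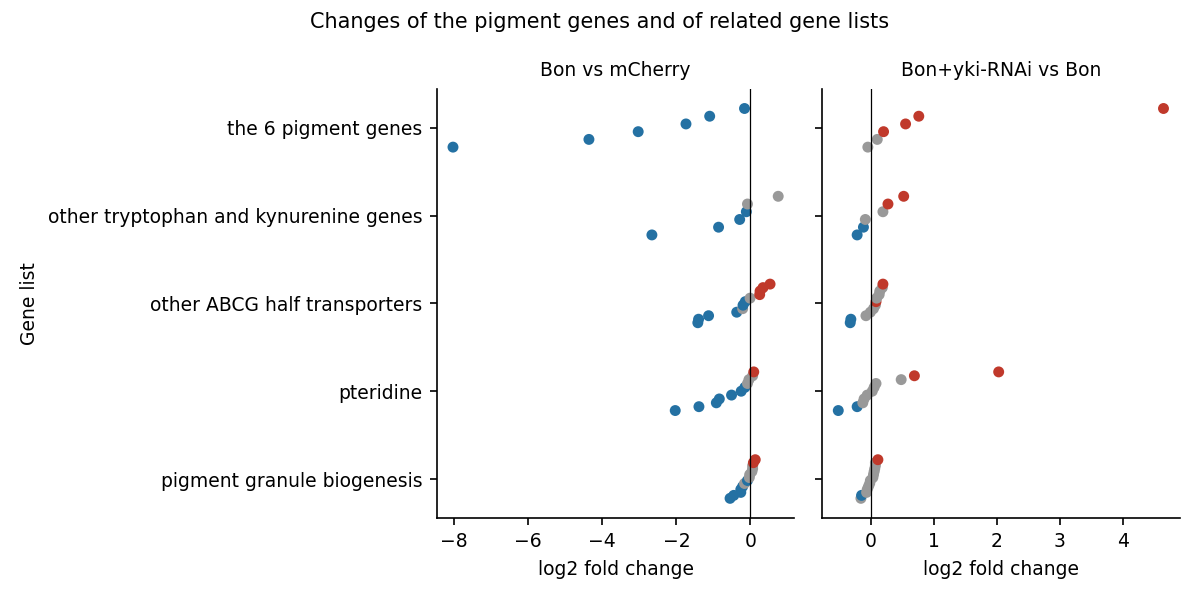
Log2 fold change of each tested gene (points) of the 6 pigment genes and of the other lists, for Bon against mCherry (left) and Bon+yki-RNAi against Bon (right), on different horizontal scales. Blue points fell, red points rose and grey points did not pass the threshold, and the 6 pigment genes reach -8.03 in the left panel and 4.65 in the right.

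Finally, the genes with the most similar profiles were looked up. Similarity was the root mean square difference between the log2 CPM profiles over the 9 libraries, each centred on its own mean, among 4374 other named genes with a mean of at least 5 CPM. The genes most like cn were Sulf1 (0.152), which encodes a heparan sulfate sulfatase, the adenosine receptor gene AdoR (0.184) and KFase (0.192). KFase had 47.7, 7.55 and 10.9 CPM in mCherry, Bon and Bon+yki-RNAi. For cd the closest were E23 (0.0423), the homeodomain gene dve (0.0469) and Fili (0.0475), of which E23 is itself of the ABCG family.

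The profile of st was closest to those of Atu (0.0174), the proteasome maturation gene Pomp (0.0192) and the nuclear receptor gene Hnf4 (0.0212), all of which varied little between groups. Closest to w were Lrt (0.0746), the LIM-domain gene Lmpt (0.105) and the EGFR ligand gene vn (0.106). The gene vn had 45.0, 12.6 and 20.7 CPM in the 3 groups. For bw they were Hey (0.106), a bHLH gene of the Notch pathway, at 15.5, 0.839 and 0.840 CPM, the glutathione S-transferase gene GstE14 (0.244) and dyl (0.312), an apical matrix gene. Among the genes compared, none was close to v: Fa2h (1.16), PH4alphaMP (1.29) and y (1.29) were the nearest, each over 1 log2 unit away on average. This difference grows with the size of a change, and v changed most of the pigment genes with Bon. In the Bon libraries v had 8 to 13.5 counts.

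**Figure D5:**
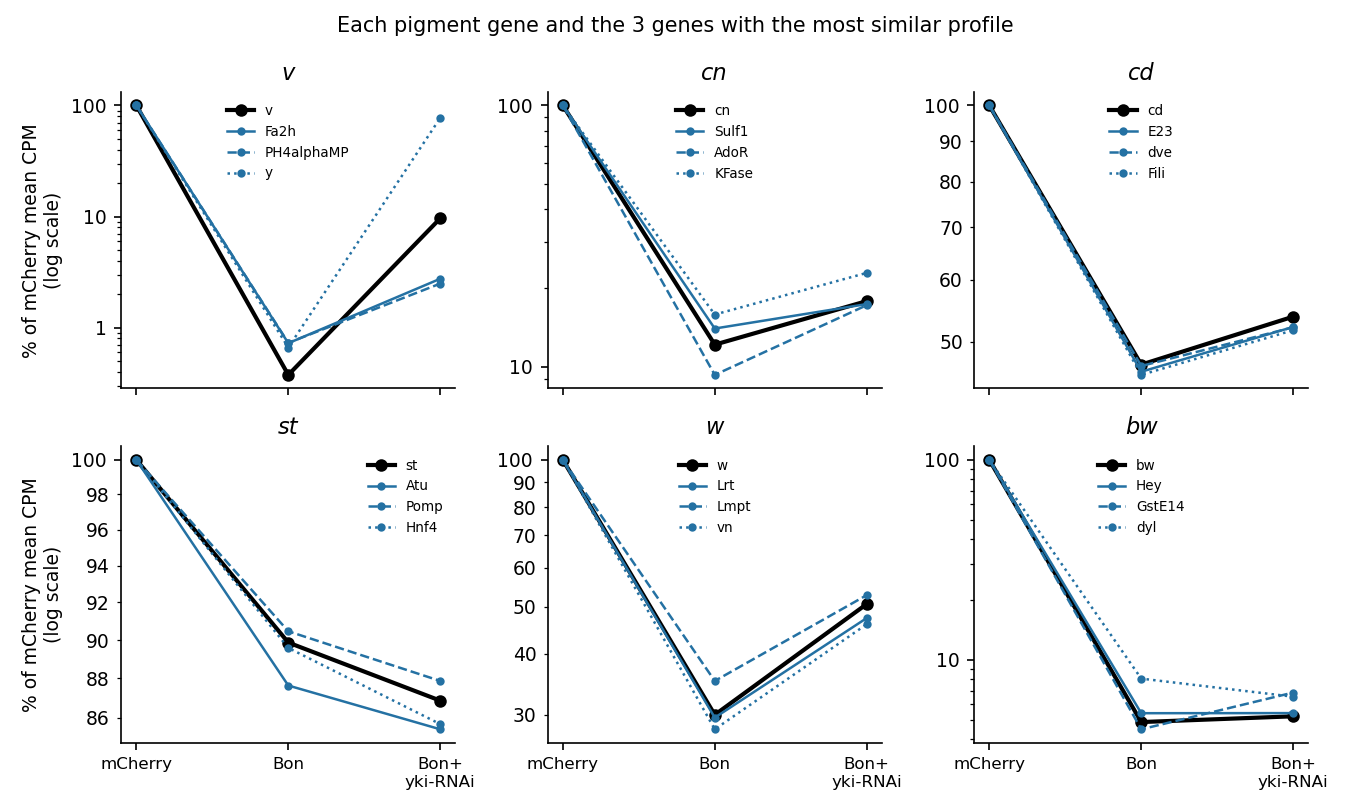
Mean CPM of each pigment gene (black) and of the 3 genes with the most similar profile (blue) as a percentage of the mCherry mean, on log axes that differ between panels. The curves nearly coincide for cd and diverge for v, where y returned to 77.3%, v to 9.65% and the other two stayed lower.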

How the data were processed

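The authors deposited a table of estimated counts per gene for each of 9 libraries. The build BDGP6 and the tools STAR 2.7.0e, Bowtie2 2.3.5.1, cutadapt 2.9, DESeq2 1.30.1 and featureCounts (Subread 1.6.2) are named, per the submitters' processing notes, with roles and options not given in the sources used here. Between 39.7 and 42.8% of the deposited counts had decimals, and gene lengths are the deposited ones. The authors' deposited tables give log2 fold changes, p-values, fold ratios, −log10 p-values and a signal of size-factor-scaled counts, of which only the log2 fold changes were quoted. No per-sample column was left unmapped.

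Counts were rounded. Genes were kept with filterByExpr (minimum count 10), which left 11068, including all 6 pigment genes. edgeR 4.0.16 in R 4.3.3 was used with TMM factors and the quasi-likelihood test (robust, no covariate, the 9 libraries fitted together), with Benjamini-Hochberg adjustment over all tested genes and a threshold of 0.05. SEs (±) of log2 fold changes are the estimate over the square root of F. Intervals are 95%, and they and the floor of 3 counts do not cover more than the spread between libraries and counting error. The fit was checked on simulated counts. DESeq2 1.42.0, other scalings, no filter, a replicate block, fits of 2 groups, each library left out, and cn joined with its antisense gene (added after the data were seen) were the alternatives. Groups and replicate numbers came from the sample titles. Named genes were the 6, bon, yki and y, in each list the pair of genes lowest in p in each of the first 2 comparisons, and the 3 most similar genes. Of the 17 granule genes listed, 14 were matched. The gene set and lists were chosen with earlier results of these data known.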

Additional observations from a re-analysis of the deposited data

How the results depend on the processing

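Over 17 alternatives, the 3 comparisons and the 6 pigment genes with y, 354 of 357 log2 fold changes kept their direction and their side of the threshold. The exceptions were in Bon+yki-RNAi against Bon, on values that did not pass the threshold: st was 0.01 with library totals alone and bw -0.02 without Bon replicate 2 (-0.02 to 0.16 over the libraries left out in turn). Without Bon replicate 3, st passed at -0.08, so that the number of the 6 that fell was 1, and over the libraries left out in turn it was 0 to 1. The cause was not tested. The largest relative change of a called value was that of st against mCherry with another scaling, -0.09 with Bon (upper quartile) and -0.09 in Bon+yki-RNAi (library totals). Over all alternatives v ranged from -8.27 to -7.85 with Bon and from 4.49 to 4.90 with yki knockdown. Library totals alone shifted the median log2 fold change of all genes in Bon+yki-RNAi against mCherry by 0.11. Same-numbered libraries deviated together at correlations of -0.024 to 0.138, so the numbers were not taken as a pairing. With a replicate block 6, 4 and 6 of the pigment genes passed in the 3 comparisons, as without it, and the calls over all genes went from 5795 to 5986, from 3054 to 3448 and from 6032 to 6266. Without division by length, the highest over the lowest level of the 6 was 11.9 in mCherry, 2150 in Bon and 81.0 in Bon+yki-RNAi, against 5.95, 1310 and 49.3 per length, because the longer genes gain. Depth limits v in Bon, with 30 counts over 3 libraries.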
